A study of Rattus norvegicus with 47 samples.

Results

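Genes of 10 proteins that are measured in blood after brain injury were looked at here as mRNA in the blood cells themselves. They were Gfap, S100b, Mbp, Eno2, Uchl1, Nefl, Mapt, Park7, Crp and Vcam1, picked by name, with earlier results of these data known, out of 20935 gene symbols on the array. Each was followed by the probe set that carried its symbol, and where several did, by the one with the highest mean over the time points. Only Mbp had more than 1 probe set, so that 10 of the 27596 probe sets of the table were members.

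The samples came from 8 male spontaneously hypertensive rats (SHR), 16 weeks old, in which the middle cerebral artery (MCA) was occluded with a thread and later reperfused by withdrawing it. Whole blood cell pellets gave 47 arrays, with 8 for 0 h, 1 h, 2 h, 3 h and 24 h each, counted from the occlusion, and 7 for 6 h. The 0 h sample preceded anesthesia, the 1 h sample was taken with the artery occluded, and the thread was withdrawn under a further anesthesia between the 1 h and 2 h samples. Heparinized blood came from the lateral tail vein until 6 h, and the 24 h sample was a heart puncture after an anesthetic overdose. All rats were operated and no sham-operated rat is among these samples, so that occlusion, surgery, anesthesia, repeated bleeding and elapsed time cannot be told apart, and at 24 h neither can the site of collection.

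Most of these proteins are made in large amounts by cells outside the blood. GFAP is the intermediate filament of astrocytes and S100B a calcium-binding protein of the same cells, while MBP compacts the myelin made by oligodendrocytes. Neuron-specific enolase (Eno2), the deubiquitinase UCHL1, neurofilament light chain (Nefl) and tau (Mapt) are abundant in neurons. DJ-1 (Park7) is a redox-responsive protein of nearly every cell, CRP is an acute phase protein secreted by the liver, and VCAM-1 is displayed by activated endothelium, where it binds leukocyte integrins. These proteins reach the circulation by leaking from damaged tissue or by secretion, and their level in plasma need not follow the mRNA of blood cells. An mRNA value from whole blood is an average over all its cells, so that fewer cells of a type and less RNA per cell cannot be told apart.

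The values are log2 RMA signals, given as the mean and SD that the authors computed for each time point, and single arrays were not used. The question of whether a gene was measured at all was put to the array itself, through the 1214 probe sets of olfactory receptor genes (symbols starting with Olr), a family not known as blood cell genes. Their means had a median between 4.86 and 4.98 at the 6 time points and a 95th percentile between 6.55 and 6.71. A member was called above background at a time point where its mean lay over that 95th percentile.

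Of the 10 genes, 4 were above background at every time point, namely Gfap, Eno2, Mbp and Park7, and the other 6 at none. Mbp and Park7 stood far above, with means of 8.91 to 9.16 and of 8.37 to 8.76, at percentiles of 99.8 to 100 among the olfactory receptor probe sets. Gfap, at 6.89 to 7.40, had percentiles of 97.7 to 99.3, and Eno2, at 6.80 to 6.95, percentiles of 97.0 to 97.9. With the bar at the 99th percentile (7.22 to 7.35) Mbp and Park7 remained above it at all 6 time points and Gfap at 1 of them.

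The 6 genes not above background, Crp apart, had means over the 25th percentile of all probe sets at every time point. Crp was above it at none. Uchl1 came nearest to the 95th percentile of the olfactory receptors, with means of 6.43 to 6.51 and a percentile of 91.9 to 93.4 among them. The means of S100b (5.79 to 6.08), Mapt (5.89 to 6.21), Vcam1 (5.74 to 6.10) and Nefl (5.79 to 5.88) had percentiles of 77.1 to 87.8. Crp, at 5.16 to 5.38, had percentiles of 59.2 to 65.7. Against the lower 95th percentile of the 178 vomeronasal receptor probe sets (5.81 to 5.90), Uchl1 and Mapt were also above background at every time point, S100b at 5, Vcam1 at 4, Nefl at 2 and Crp at none. A signal inside the background band is not shown to come from the named mRNA.

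**Figure D1:**
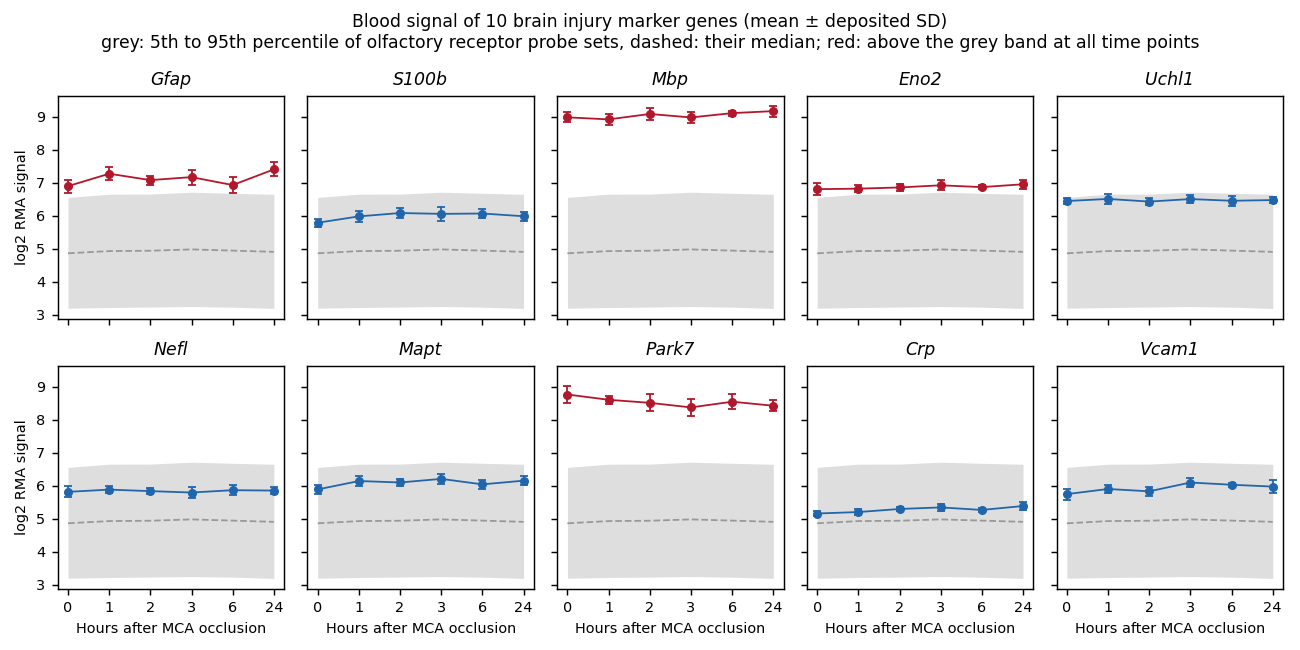
The authors' mean log2 signal of each gene at 0, 1, 2, 3, 6 and 24 h post MCA occlusion, with the deposited SD as bars (8 arrays, 7 at 6 h) and the 5th to 95th percentile of 1214 olfactory receptor probe sets in grey. Gfap, Eno2, Mbp and Park7 (red) lie over the band at all 6 time points, Gfap and Eno2 narrowly, and the other 6 genes lie inside it.

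By a moderated F-test over the time points (limma, Benjamini-Hochberg over all probe sets, called at an adjusted p under 0.05), 7 of the 10 members changed, in a table in which 55.5% of all probe sets did. The olfactory receptor probe sets are a second yardstick, and 314 of the 1214 (25.9%) passed the same F-test. Eno2 (adjusted p = 0.267), Uchl1 (adjusted p = 0.792) and Nefl (adjusted p = 0.840) did not pass. With quantile normalized means 5 members passed in place of 7, S100b and Park7 being lost. Of the 7 that did pass, only Gfap, Mbp and Park7 were above background.

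Each later time point was then compared with 0 h, the 5 comparisons sharing the same 0 h samples. At 1 h, 3 members rose and none fell, beside 37.1% of all probe sets called (21.7% higher and 15.4% lower). At 2 h, 3 members rose and none fell, beside 40.4% called (21.7% higher and 18.6% lower). At 3 h, 5 members rose and 1 fell, beside 46.5% called (27.3% higher and 19.2% lower). The members were called about as often as the whole table at 1 h and 2 h, and at 3 h the count was 6 of 10.

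At 6 h, 2 members rose and none fell, beside 41.8% called (22.5% higher and 19.3% lower). At 24 h, 5 members rose and 1 fell, beside 31.2% called (17.4% higher and 13.9% lower). Between 6 h and 24 h 1 member rose and none fell, beside 18.9% called (10.2% higher and 8.68% lower). The count of members was under the share of the whole table at 6 h and over it at 24 h. Apart from Park7, which fell at 3 h and 24 h, every member called in these comparisons was higher than at the earlier time point.

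Small upward shifts were common in probe sets that lie at background. The olfactory receptor probe sets had median changes from 0 h of 0.06, 0.07, 0.10, 0.08 and 0.05 on the log2 scale at 1, 2, 3, 6 and 24 h, against medians over all probe sets of 0.05, 0.05, 0.07, 0.05 and 0.04. The members' medians were 0.07, 0.09, 0.15, 0.09 and 0.19 in the same order. At 3 h, 312 olfactory receptor probe sets were called higher and 11 lower, and at 24 h the numbers were 111 and 17. The 5th to 95th percentile of their changes ran from -0.08 to 0.29 at 3 h and from -0.13 to 0.22 at 24 h. A rise of a member by less than about this much was therefore no larger than rises seen among probe sets of genes not known from blood cells.

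Set against that range, 2 members moved up further than the 95th percentile at 1 h (Gfap and Mapt), 1 at 2 h (S100b), 2 at 3 h (Mapt and Vcam1), 1 at 6 h (Vcam1) and 4 at 24 h (Gfap, Mapt, Crp and Vcam1). Park7 lay under the 5th percentile at all 5 time points. The scale also bears on the count of rises over all genes. After each time point was centred on its median, 47.2% of the calls at 3 h were rises in place of 58.7%, and after centring on the olfactory receptors, which lowers the 3 h changes by 0.12, 23.4% were. The corresponding values for 1 h were 58.6%, 40.0% and 33.4%, and for 24 h 55.6%, 37.3% and 36.3%. Centring on the olfactory receptors also turned the split at 2 h from 53.9% to 29.1%, at 6 h from 53.8% to 30.2% and for 24 h against 6 h from 54.1% to 66.9%. No single difference from an earlier time point that passed the test changed its sign under these scalings, while differences that did not pass, such as that of Crp at 1 h (0.04, and -0.005 after centring on the median), could do so.

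**Figure D2:**
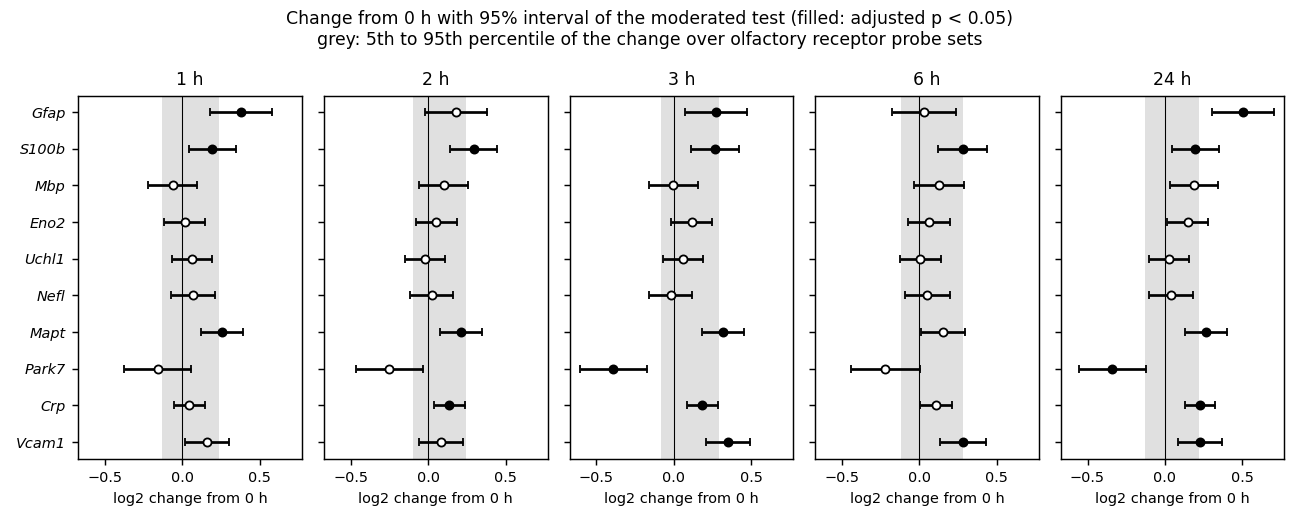
Change of each gene from 0 h at 1, 2, 3, 6 and 24 h on the log2 scale, with 95% intervals, filled where the adjusted p was under 0.05, over a grey range that holds the 5th to 95th percentile of the changes of 1214 olfactory receptor probe sets. Gfap at 1 h (0.38) and 24 h (0.51) and Park7 at 3 h (-0.39) and 24 h (-0.34) lie outside the grey range, while Uchl1 and Nefl stay within it throughout.

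The glial genes come first. Gfap (probe set 10747948, chromosome 10, 90763149 to 90771847, minus strand, rn5) had the largest rise of the 10 members. The authors' means were 6.89, 7.27, 7.08, 7.17, 6.93 and 7.40 at 0, 1, 2, 3, 6 and 24 h, with deposited SDs of 0.14 to 0.24. The profile went up within the first hour, was back near its start at 6 h, and was highest at 24 h.

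The rise of Gfap was 0.38 at 1 h (95% interval 0.18 to 0.58, adjusted p = 0.00263, 1.30-fold) and 0.51 at 24 h (0.31 to 0.71, adjusted p = 0.000118, 1.42-fold). At 3 h it rose by 0.27 (adjusted p = 0.0217), which was lost when the time points were centred on their median (0.23, adjusted p = 0.0536) or on the olfactory receptors (0.15, adjusted p = 0.236). The differences from 0 h at 2 h (0.18, adjusted p = 0.138) and 6 h (0.03, interval -0.17 to 0.24, adjusted p = 0.821) did not pass. Between 6 h and 24 h, the step at which collection moved from the tail vein to the heart, Gfap rose by 0.47 (0.27 to 0.68, adjusted p = 0.000466). It was the only member that passed in this step.

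Other astrocyte genes did not all share this profile. Of 6 further astrocyte markers measured, 4, 2, 3, 1 and 1 rose at 1, 2, 3, 6 and 24 h and 1 fell at 3 h, while 5 of the 6 were at background throughout. Aldoc, an aldolase of glycolysis and the one marker above background, rose at every time point, by 0.35, 0.44, 0.32, 0.21 and 0.47. Gja1, the gap junction protein connexin 43, rose at 1 h (0.28) and 3 h (0.22), with a difference of -0.01 at 24 h.

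The 3 genes whose 5 changes lay nearest to those of Gfap, among 11449 named genes called by the F-test, were Sfrp4, a secreted binder of Wnt proteins, Mylk, a myosin light chain kinase, and Gmpr, a GMP reductase. Their root mean square differences from Gfap were 0.019, 0.026 and 0.040, and all 3 had a small change at 6 h (0.05, 0.06 and -0.01) and a large one at 24 h (0.54, 0.47 and 0.56). Several red cell and platelet genes had values of the same kind. Ank1, the ankyrin of the red cell membrane, changed by 0.58 at 1 h, -0.06 at 6 h and 1.00 at 24 h. Slc4a1, the anion exchanger of red cells, changed by 0.34, -0.23 and 0.58 and the platelet integrin Itga2b by 0.42, 0.07 and 0.49 at those times.

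Over the whole lists the movement was smaller. All 8 erythroid and all 6 platelet markers measured were above background at every time point. Of the erythroid markers 3 rose at 1 h, none at 2 h, 2 at 3 h, none at 6 h and 4 at 24 h, and 2 fell at 6 h. Their summed level, in log2, was 15.57 at 0 h and 15.67, 15.60, 15.59, 15.48 and 15.72 at the later times, while the hemoglobin gene Hbb changed by 0.02 at most. The mean level of Hbb, 13.5, lay next to the highest mean on the array (13.6), so that its flat values do not show whether red cell RNA changed. Of the platelet markers 3 rose at 1 h, 2 at 2 h, 1 at 3 h, none at 6 h and 3 at 24 h, with summed levels of 14.37, 14.55, 14.50, 14.40, 14.33 and 14.54. The part of red cells or platelets in the change of Gfap was not tested.

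**Figure D3:**
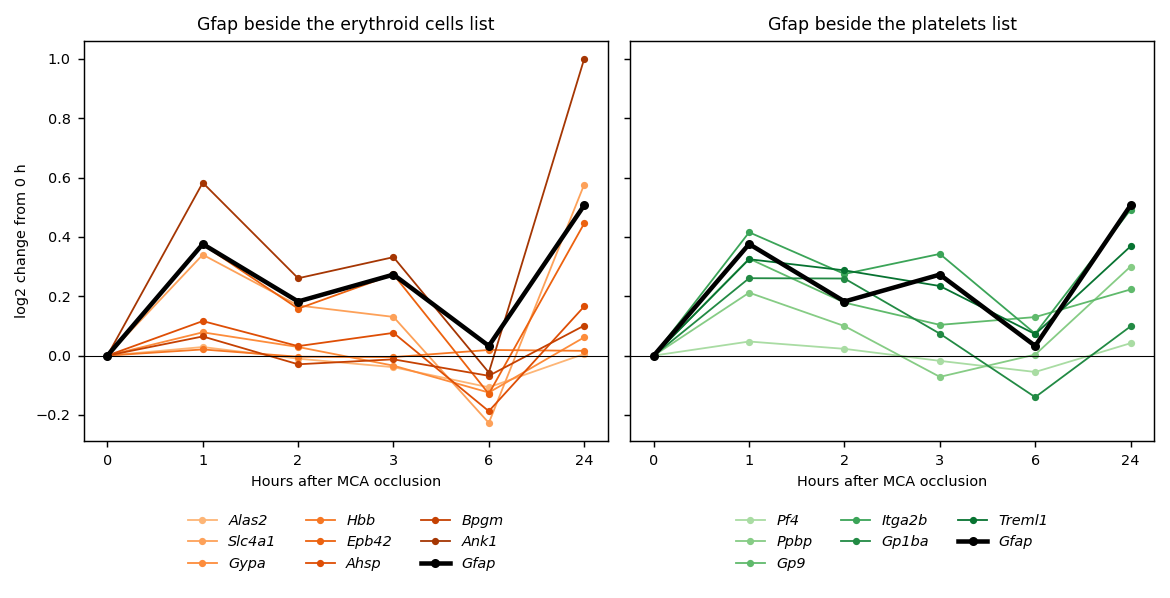
Change from 0 h (log2) of Gfap at 1, 2, 3, 6 and 24 h beside all 8 erythroid markers in one panel and all 6 platelet markers in the other. Gfap goes from 0.38 at 1 h to 0.03 at 6 h and 0.51 at 24 h, Ank1 from 0.58 to -0.06 and 1.00, and the hemoglobin gene Hbb, at a level of 13.5 near the array maximum of 13.6, stays near 0.

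S100b (probe set 10832441, chromosome 20, 15287747 to 15296457, minus strand) was at background, with means of 5.79, 5.98, 6.08, 6.05, 6.07 and 5.98 at 0, 1, 2, 3, 6 and 24 h and deposited SDs of 0.11 to 0.20. It was the one member called higher at all 5 later time points, by 0.19 (adjusted p = 0.0426), 0.29 (0.00174), 0.27 (0.00371), 0.28 (0.00379) and 0.20 (0.0440). The 0 h mean was the lowest and the later 5 lay within 0.10 of each other. All 5 rises but that at 2 h were inside the 5th to 95th percentile of the olfactory receptor changes. The F-test of S100b (adjusted p = 0.00972) was not passed with quantile normalized means (0.123) or after centring on the olfactory receptors (0.159). The rises at 1 h and 24 h were lost under each other scaling, with adjusted p of 0.149 and 0.128 after centring on the median. That at 3 h was lost with quantile normalized means (adjusted p = 0.0619) and after centring on the olfactory receptors (adjusted p = 0.124).

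Mbp (probe set 10802972, chromosome 18, 78385400 to 78474209, plus strand) had the highest position over background of the 10 genes and small changes. Its means were 8.98, 8.91, 9.08, 8.97, 9.10 and 9.16, with deposited SDs of 0.08 to 0.18. The F-test gave an adjusted p of 0.0427, and no single difference from 0 h passed, the largest being 0.19 at 24 h (0.03 to 0.35, adjusted p = 0.0616). Without the 24 h samples the F-test did not pass (adjusted p = 0.164). With quantile normalized means Mbp rose at 6 h (0.21, adjusted p = 0.0423) and 24 h (0.27, adjusted p = 0.00802).

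The second probe set of Mbp (10802980, chromosome 18, 78473296 to 78504230) overlaps the end of the first and reaches further downstream. It lay just over background, at 6.82, 6.90, 7.01, 7.00, 7.08 and 7.00 with deposited SDs of 0.11 to 0.18. It rose at 2 h (0.19, adjusted p = 0.0310), 3 h (0.18, adjusted p = 0.0426) and 6 h (0.27, interval 0.11 to 0.42, adjusted p = 0.00401), where the first probe set differed by 0.10, -0.003 and 0.13. The differences of the second at 1 h (0.09, adjusted p = 0.369) and 24 h (0.18, adjusted p = 0.0528) did not pass. The difference between both probe sets was not tested. The Mbp locus is known to give, besides the classic myelin proteins, the longer Golli transcripts, which start upstream and are found in immune cells as well as in the brain, and the annotation ties both probe sets to the same transcripts.

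**Figure D4:**
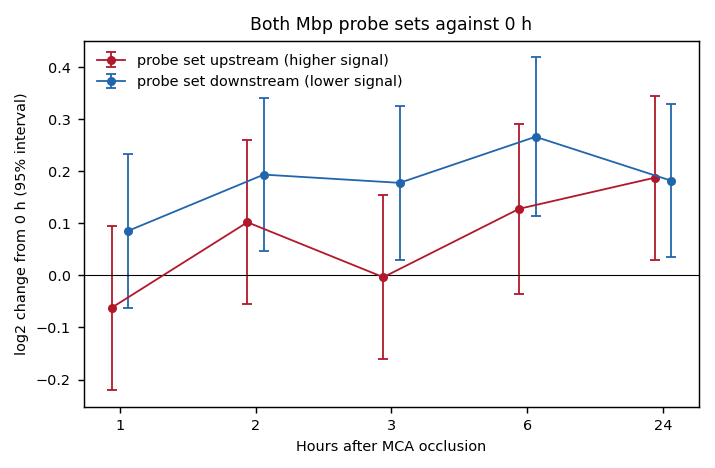
Change from 0 h (log2) of the 2 Mbp probe sets at 1, 2, 3, 6 and 24 h, with 95% intervals. The downstream probe set is 0.18 higher than at 0 h at 3 h and 0.27 higher at 6 h, where the probe set of higher signal differs by -0.003 and 0.13.

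Among 8 other oligodendrocyte markers, 4, 2, 3, 1 and 2 rose and 1, 2, 2, 2 and 2 fell at 1, 2, 3, 6 and 24 h. Cnp, a phosphodiesterase of myelin, fell at 2 h and later, by 0.29 at 6 h. Mal, a membrane protein of myelin that is also known from T cells, fell by 1.21, 1.31, 1.51, 1.40 and 0.78.

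The nearest to Mbp among the named genes were Olr319, Rrm2b and Fuz, at root mean square differences of 0.044, 0.050 and 0.053. One of these is an olfactory receptor, a member of the family used as background.

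Of the 4 neuronal genes, Eno2, Uchl1 and Nefl passed no test, and Mapt, which did, lay inside the background. Eno2 (probe set 10865502, chromosome 4, 224302788 to 224311698, minus strand) had means of 6.80, 6.82, 6.85, 6.92, 6.86 and 6.95, with deposited SDs of 0.05 to 0.18. It was above background throughout, and its largest difference from 0 h was 0.15 at 24 h (0.01 to 0.28, adjusted p = 0.0818). Uchl1 (probe set 10776739, chromosome 14, 42928243 to 42938965, minus strand) had means of 6.44, 6.51, 6.43, 6.50, 6.45 and 6.47. All its differences from 0 h lay between -0.02 and 0.06, with 95% intervals inside -0.15 to 0.19. Nefl (probe set 10781266, chromosome 15, 46793525 to 46797402, minus strand), with means of 5.81, 5.88, 5.83, 5.79, 5.86 and 5.85, differed by -0.02 to 0.07, with intervals inside -0.16 to 0.21.

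Mapt (probe set 10738744, chromosome 10, 92050662 to 92147840, plus strand) had means of 5.89, 6.14, 6.10, 6.21, 6.04 and 6.15, with deposited SDs of 0.11 to 0.15. It rose by 0.25 at 1 h (0.12 to 0.39, adjusted p = 0.00260), by 0.21 at 2 h (adjusted p = 0.0103), by 0.32 at 3 h (0.18 to 0.45, adjusted p = 0.000129) and by 0.26 at 24 h (0.13 to 0.40, adjusted p = 0.00228). The difference at 6 h was 0.15 (adjusted p = 0.0710). At 1, 3 and 24 h the rise of Mapt was larger than that of 95% of the olfactory receptor probe sets, yet its level stayed 0.50 to 0.67 below their 95th percentile. The rise at 2 h was lost with quantile normalized means (adjusted p = 0.0893) and after centring on the olfactory receptors (0.13, adjusted p = 0.127).

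Of 12 other neuronal markers, 8 were at background at every time point. None fell, and 2 rose at 1 h, 3 at 2 h, 5 at 3 h and 4 each at 6 h and 24 h, with median changes of 0.11, 0.10, 0.13, 0.08 and 0.13. Syp, the synaptic vesicle protein synaptophysin, was above background at 4 of the 6 time points and rose by 0.30 at 6 h (adjusted p = 0.000644) and 0.29 at 24 h (adjusted p = 0.00145). Gad1, which makes the transmitter GABA, was never above background and rose by 0.26 at 2 h (adjusted p = 2.92e-05). Map2, a dendritic partner of microtubules and the highest of the list in level, passed at no time point, its largest difference being 0.16 at 1 h (adjusted p = 0.0587).

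Park7 was the one member that fell. The probe set (10881850, chromosome 5, 171559202 to 171577808, minus strand) had means of 8.76, 8.60, 8.51, 8.37, 8.54 and 8.42 at 0, 1, 2, 3, 6 and 24 h, with deposited SDs of 0.13 to 0.26. Every later mean was below that at 0 h, the lowest at 3 h.

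The fall was 0.39 at 3 h (a change of -0.39, interval -0.61 to -0.17, adjusted p = 0.00271, 0.762 of the 0 h signal) and 0.34 at 24 h (-0.56 to -0.12, adjusted p = 0.0136, 0.790 of the 0 h signal). At 1 h the difference was -0.16 (adjusted p = 0.242), at 2 h -0.25 (adjusted p = 0.0558) and at 6 h -0.22 (adjusted p = 0.110). The 2 h difference was called after centring on the median (adjusted p = 0.0354) and the 24 h fall was not called with quantile normalized means (-0.24, adjusted p = 0.0961). The F-test of Park7 was likewise not passed with quantile normalized means (adjusted p = 0.175).

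The other genes of the antioxidant response, to which DJ-1 is tied through the factor NRF2, went both ways. Of 10 measured, all above background, 3, 2, 3, 3 and 3 rose and 4, 3, 3, 4 and 4 fell at 1, 2, 3, 6 and 24 h. Nqo1, a quinone reductase and classic NRF2 target, rose by 1.78 at 6 h (adjusted p = 1.95e-15). Both subunits of the enzyme that limits glutathione synthesis moved apart, Gclm rising by 0.74 at 24 h and Gclc falling by 0.72 at 2 h. Prdx1, a peroxiredoxin, fell by 0.60 at 1 h, and the catalase gene Cat, the highest of the list in level (13.1, near the array maximum), rose at 1 h (0.14) and 24 h (0.11) and fell by 0.12 at 6 h.

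Most lymphocyte markers fell over the same hours. Of 8 B cell markers, 7, 8, 7, 7 and 6 fell at 1, 2, 3, 6 and 24 h. The list had its lowest summed level at 3 h, 11.19 against 13.09 at 0 h, with a median change of -2.13. All 8 T cell markers were lower than at 0 h at all 5 later time points, and their summed level went from 13.22 at 0 h to 12.75, 12.29, 12.13, 11.95 and 12.50. The T cell sum was lowest at 6 h. The part of lymphocyte numbers in the fall of Park7 was not tested. The nearest profiles to Park7 were those of Skp2, a ubiquitin ligase subunit, Cbx3, a heterochromatin protein, and Zfp41, a zinc finger protein, at root mean square differences of 0.035, 0.039 and 0.041, each with its lowest value at 3 h (-0.38, -0.41 and -0.37).

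Crp (probe set 10765801, placed on no assembled chromosome by the annotation) had the lowest percentile among the background probe sets of the 10 genes. Its means were 5.16, 5.20, 5.29, 5.34, 5.27 and 5.38, with deposited SDs of 0.06 to 0.13. It rose by 0.14 at 2 h (adjusted p = 0.0237), by 0.18 at 3 h (adjusted p = 0.00217) and by 0.23 at 24 h (0.13 to 0.33, adjusted p = 0.000479), and the differences at 1 h (0.04, adjusted p = 0.504) and 6 h (0.11, adjusted p = 0.0845) did not pass. Even at 24 h the mean of Crp lay 1.26 below the 95th percentile of the olfactory receptors. The rises at 2 h and 3 h were inside the range of the olfactory receptors and were lost with quantile normalized means (adjusted p = 0.293 and 0.106). Both were also lost after centring on the olfactory receptors (adjusted p = 0.393 and 0.320), and that at 2 h after centring on the median (adjusted p = 0.0826).

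The other genes of liver secreted proteins were in the same place. None of the 10 measured was above background at any time point, and yet 5, 4, 4, 4 and 4 of them were called higher at 1, 2, 3, 6 and 24 h and none lower, with median changes of 0.13, 0.13, 0.13, 0.15 and 0.09. Ahsg, the serum glycoprotein fetuin-A, rose by 0.42 at 3 h, the fibrinogen chain Fgb by 0.31 and the protease inhibitor A2m by 0.25.

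Vcam1 (probe set 10826249, chromosome 2, 237158195 to 237184395, minus strand) was also at background, with means of 5.74, 5.90, 5.83, 6.10, 6.03 and 5.97 and deposited SDs of 0.07 to 0.19. It rose by 0.35 at 3 h (0.21 to 0.49, adjusted p = 7.24e-05, 1.28-fold), by 0.28 at 6 h (0.14 to 0.43, adjusted p = 0.00156) and by 0.23 at 24 h (0.09 to 0.37, adjusted p = 0.0119). At 1 h (0.16, adjusted p = 0.0782) and 2 h (0.08, adjusted p = 0.347) it did not pass. The 3 h rise had the lowest adjusted p of any member in any comparison, and it was 0.23 or more, and past the test, under every scaling tried. The rise at 24 h was lost with quantile normalized means (adjusted p = 0.115).

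Of 7 other endothelial markers measured, 3 were above background at every time point and 3 at none. Vwf, the von Willebrand factor that platelets also carry, rose by 0.40 at 1 h and by 0.47 at 24 h. Tek, the angiopoietin receptor, rose by 0.81 at 24 h (adjusted p = 2.76e-05), the one time point at which it was above background, and Tie1, its relative, fell by 0.36 at 1 h. In all, 2, 3, 4, 1 and 3 rose and 1, 1, 0, 0 and 0 fell.

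Of 8 genes for the binding partners of VCAM-1 and related adhesion proteins, 7 were above background at every time point. Itga4, the alpha chain of its main integrin receptor, fell at every time point and by 1.07 at 6 h (adjusted p = 6.10e-11), and its partner Itgb1 fell by 0.33 at 6 h. Itgb7, the other beta chain that pairs with Itga4, rose by 0.57 at 2 h. Selp, the P-selectin of platelets and endothelium, rose at every time point and by 1.40 at 6 h (adjusted p = 2.87e-15), and Icam2 fell by 0.39 at 1 h. In this list 3, 3, 3, 3 and 2 rose and 2, 3, 3, 2 and 1 fell.

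Markers of neutrophils and of B and T cells had median changes larger than the change of any of the 10 genes. The median change of 8 neutrophil markers reached 0.82 by 1 h, 1.65 by 6 h and 0.80 by 24 h, with 7 of the 8 higher at every time point. The median of 8 B cell markers at 1, 3 and 24 h was -1.50, -2.13 and -0.53, and that of 8 T cell markers -0.53, -1.11 and -0.72. Of 7 NK cell markers 2, 4, 5, 6 and 6 fell and 1, 1, 0, 1 and 0 rose, and the 7 monocyte markers split, with 1, 3, 4, 4 and 1 higher and 4, 3, 3, 3 and 3 lower. The medians of the platelet list (0.04 to 0.29) and the erythroid list (-0.12 to 0.13) were smaller. The medians of the neuronal, astrocyte, endothelial and liver lists, members left out, lay between 0.03 and 0.19 at every time point and that of the oligodendrocyte list between -0.02 and 0.13. The part of blood cell composition in the members' changes was not tested.

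Ordered by their means, 0 h was the lowest time point for Gfap, S100b, Eno2, Mapt, Crp and Vcam1 and the highest for Park7. The time of the highest mean differed, being 24 h for Gfap, Eno2, Mbp and Crp, 3 h for Mapt and Vcam1, 2 h for S100b and 1 h for Uchl1 and Nefl. The means of each gene were sorted before neighbours were compared, so that these are the smallest of its steps by construction. Of the 50 neighbouring pairs over the 10 genes, 1 passed at an adjusted p under 0.05, the step from 0 h to 1 h in S100b, and 2 had an unadjusted p under 0.05. Over all probe sets, without such sorting and so on another footing, the share called between later time points was 8.78% for 2 h against 1 h, 10.4% for 3 h against 1 h, 19.4% for 6 h against 1 h and 5.85% for 24 h against 1 h. It was 3.53% for 3 h, 10.1% for 6 h and 16.2% for 24 h against 2 h, and 4.78% for 6 h and 13.8% for 24 h against 3 h.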

How the data were processed

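RNA from the whole blood cell pellets was worked up by the authors in randomized batches of 8, amplified and hybridized to Affymetrix RaGene 1.0 ST arrays. The authors deposited log2 RMA signals with the mean and SD of each time point. The means and SDs, both in log2 units, were used here. The deposited fold changes, p-values and FDRs hold the authors' own comparisons and were not used, nor were 47 columns of single arrays, which could not be matched to samples by name. Symbols and positions follow the table's rn5 annotation, which names 21406 of 27596 probe sets.

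A moderated test equal to limma's lmFit and eBayes was computed from the means, SDs and array numbers (limma 3.58.1, R 4.3.3, 41 residual and 5.71 prior degrees of freedom) and tested on simulated data. All 47 arrays entered, without a block for the rat, with p-values adjusted over all probe sets and a threshold of 0.05. The 6 samples of a rat are treated as independent, and the workup batch could not be entered. The precision is limited by 7 or 8 arrays at a time point.

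The members and the 14 gene lists (121 of 126 genes measured) were chosen with earlier results of these data known. Genes named from a list were the highest in level and, among those passing the F-test, the 2 of largest rise and the 2 of largest fall. For members above background and passing the F-test, the 3 named genes of nearest profile were also given. The result of 1 gene is not reported here. Summed levels are the log2 of the sum of the linear signals of a list. Alternatives were the removal of the lowest 25% of probe sets, centring on the median, quantile normalization of the means, an unmoderated variance, an intensity trend, the other Mbp probe set, omission of 24 h, other background levels and, chosen after seeing the data, centring on the olfactory receptor probe sets.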

Additional observations from a re-analysis of the deposited data

How the results depend on the processing

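Of the counts of members and of all probe sets called, 92 values under the alternatives stayed within 1.5 times the main count and 5 did not. The number of members above background at every time point, 4 in the main setting, was 2 with the 99th percentile and 9 with the 25th percentile of all probe sets. The number called at 2 h was 1 with quantile normalized means in place of 3. After centring on the olfactory receptor probe sets, chosen after seeing the data, 3 members were called at 3 h in place of 6, and 2 between 6 h and 24 h in place of 1. For single genes, 397 values kept their side of the threshold, 33 of them differences that passed in neither setting and changed sign, all of 0.12 or less in size. A further 23 no longer passed it, 9 newly passed it and 1 both newly passed it and changed sign, the difference of Mbp at 3 h, which was 0.18 with the other probe set in place of -0.003. The causes were not tested. No paired analysis was possible because the values used are means per time point and carry no rat, and single arrays could not be left out in turn for the same reason. The signal over background limits the 6 members inside the olfactory receptor band, where no change is shown to be that of the named mRNA.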
